A study of Homo sapiens with 6 samples.

Results

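The genes described here are the subunits of the transcription factor NF-kB, its inhibitors and the feedback genes around it: NFKB1, NFKB2, RELA, RELB, REL, NFKBIA, NFKBIE, TNFAIP3, BIRC2 and BIRC3. They were found by symbol in the probe table of the array platform, which named 14 of the 22283 probe sets for 9 of the 10 genes; BIRC3 was not analysed on the arrays here. Total RNA was measured on 6 Affymetrix arrays from Hs578T, an established human breast cancer line, made inducible for HOXA5, a homeobox transcription factor whose targets the series set out to find. Cells at 0 h (uninduced), 6 h and 9 h of induction were each read on 2 arrays. By their titles, 1 was from experiment 1 and 1 from experiment 2. Cells of all 3 groups carried the inducible gene and were plated 24 h ahead of induction. The probe table named no probe set for HOXA5, so its induction was not read on the arrays here. The sources used here name neither the inducing agent nor whether the line is 1 clone. With no uninduced arrays at 6 h or 9 h analysed here, time in culture and the agent cannot be told apart from HOXA5.

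NF-kB is a dimer of Rel family proteins. In resting cells it is held in the cytoplasm by IkB proteins such as those encoded by NFKBIA and NFKBIE. A signal that activates the IkB kinase has the inhibitor degraded, the dimer enters the nucleus, and the genes it switches on include those of its own inhibitors, so that the response limits itself. NFKB1 and NFKB2 encode precursors that are cut to the DNA-binding subunits p50 and p52, while RELA, RELB and REL encode the subunits with an activation domain. TNFAIP3 encodes A20, a ubiquitin-editing brake on the pathway, and BIRC2 and BIRC3 encode the ubiquitin ligases cIAP1 and cIAP2.

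The family was chosen by gene symbol after its normalised intensities and log2 changes on these same 6 arrays were known, with NFKBIA and TNFAIP3 among the genes higher after induction. The values below are therefore a description, and nothing is supported with them.

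NF-kB dimers bind kappaB sites, and stretches of 5 promoters are shown because they hold matches to the kappaB consensus and can be read beside the changes of their genes. The sequences are RefSeq's, build GRCh38.p14, 5′ to 3′ on the strand of the gene, with matches on either strand in capitals.
NFKBIA, chr14:35404790-35404849, minus strand: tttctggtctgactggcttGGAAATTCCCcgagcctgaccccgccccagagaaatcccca
TNFAIP3, chr6:137867169-137867228, plus strand: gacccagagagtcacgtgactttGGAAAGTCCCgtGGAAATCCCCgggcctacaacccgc
NFKB1, chr4:102501289-102501338, plus strand: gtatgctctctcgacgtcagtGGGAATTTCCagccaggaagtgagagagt
NFKB2, chr10:102394453-102394522, plus strand: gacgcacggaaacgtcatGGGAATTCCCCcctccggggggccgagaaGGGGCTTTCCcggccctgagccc
REL, chr2:60881509-60881553, plus strand: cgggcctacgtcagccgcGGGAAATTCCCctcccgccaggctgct
Each stretch lies upstream of an annotated transcription start. The NFKBIA match spans bases 81 to 72 before the start, and the NFKB1 match bases 49 to 40. TNFAIP3 has a pair of matches, at bases 67 to 58 and 55 to 46. The capitals of REL hold overlapping matches at bases 47 to 38 and 46 to 37. Those of NFKB2 hold overlapping matches at bases 107 to 98 and 106 to 97 and a separate one at bases 78 to 69.

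The 250 bases before the start were searched on both strands in 13 promoter entries of 8 of the 10 genes. A kappaB match was found in 7 entries, of 6 genes, where 9.96% of all 35116 entries in the table held one. BIRC3 had 2 matches, and a further NFKB2 entry held matches too. RELA and BIRC2, with 2 entries each, had 0 matches in this window. RELB and NFKBIE were not searched. A match describes letters and measures no binding.

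The arrays differed in brightness, with median deposited intensities between 18.7 and 95.8. Both extremes fell in experiment 1, which had 95.8 at 0 h, 18.7 at 6 h and 48.7 at 9 h. Experiment 2 had 49.1, 39.1 and 42.4. All arrays were quantile normalised, so each change is relative to the whole array. Values below 12.7 intensity units were set to that floor. All 6 markers of mesenchymal, basal-like breast cancer cells (VIM, CD44, FN1, SPARC, CAV1 and AXL) were above the floor on all 6 arrays. Of 6 luminal epithelial markers, 3 (GATA3, ESR1 and FOXA1) were above the floor on all 6 arrays, GATA3 between 114 and 193, CDH1 was on 3, and EPCAM and KRT19 were at the floor on all 6. Of 5 endothelial markers, PECAM1 was above the floor on all 6 arrays, VWF and KDR on 2 each and TEK on 1, and CDH5 was at the floor on all 6. Of 4 leukocyte markers read, 2 (CD3E and CD53) were above the floor on all 6 arrays, PTPRC on 4 and CD14 on 1. Their summed intensity was 149 and 120 on the uninduced arrays, 174 and 252 on the 6 h arrays, and 199 and 207 on the 9 h arrays. It was thus higher after induction without overlap, and its part in the results was not tested. CD53, the brightest of the 4, read between 69.9 and 172.8. On the same arrays in the same order, luminal sums were 219.5, 218.4, 163.5, 276.9, 282.8 and 262.1. Mesenchymal sums lay between 15580 and 17340, and endothelial sums between 66.8 and 77.6. In bulk RNA, fewer cells expressing a gene and less of its RNA per cell cannot be told apart. The experiments are described as separate RNA batches, and whether they were separate cultures is not stated, so the spread between arrays may be technical in part.

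Among the inhibitors, NFKBIA, the gene of IkB-alpha, had the largest change of the family at both times. NFKBIA intensities were 29.9 and 126.5 before induction (experiments 1 and 2), 298 and 464 on the 6 h arrays, and 708 and 449 on the 9 h arrays. Every induced array lay above both uninduced arrays, which themselves were 2.08 apart on the log2 scale. Its log2 change against 0 h was 2.60 ± 0.66 after 6 h (standard error of the fit, n = 2 arrays per group), a 6.04-fold difference. After 9 h it was 3.20 ± 0.66, or 9.17-fold. Experiment 1 gave 3.32 and 4.57 at the successive times, and experiment 2 gave 1.87 and 1.83. Leaving out the uninduced array of experiment 1 gave 1.55 and 2.16, and leaving out its counterpart in experiment 2 gave 3.64 and 4.24. In the deposited intensities, without scaling, the log2 change was 0.98 after 6 h and 2.62 after 9 h, while the median over all genes was -1.36 and -0.56.

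NFKBIE, the gene of IkB-epsilon, had a smaller change that was similar in both experiments. NFKBIE intensities were 60.9 and 59.9 before induction, 99.9 and 107.5 on the 6 h arrays, and 125.5 and 98.3 on the 9 h arrays. The uninduced arrays were nearly equal, and no induced array reached down to them. In the fit its log2 change was 0.78 ± 0.37 after 6 h, with 0.72 in experiment 1 and 0.84 in experiment 2. After 9 h it was 0.88 ± 0.37, with 1.04 and 0.71 in the experiments.

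TNFAIP3, the gene of A20, ordered the 6 arrays exactly as NFKBIA did, on both of its probe sets. The TNFAIP3 probe set of higher mean had intensities of 105 and 270.6 before induction, 388.2 and 796.2 on the 6 h arrays, and 1057 and 724 on the 9 h arrays. Both induced groups lay wholly above the uninduced one. The log2 change was 1.72 ± 0.53 after 6 h (3.30-fold) and 2.38 ± 0.53 after 9 h (5.19-fold). Experiment 1 gave 1.89 and 3.33 at the successive times, and experiment 2 gave 1.56 and 1.42. With the uninduced array of experiment 1 omitted it was 1.04 and 1.69. The other probe set had log2 changes of 1.18 ± 0.58 and 2.00 ± 0.58, also without overlap, and 0.47 and 1.29 with the same array omitted. The pair correlated at 0.978 over the 6 arrays, which is a description.

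BIRC2, the gene of cIAP1, which adds ubiquitin to signalling proteins below TNF receptors, was separated from 0 h after 9 h but not after 6 h. BIRC2 intensities were 421.5 and 664 before induction, 575 and 1137 on the 6 h arrays, and 1236 and 1237 on the 9 h arrays. The 6 h array of experiment 1 lay below the uninduced array of experiment 2, and both 9 h arrays lay above all others. The log2 change was 0.61 ± 0.38 after 6 h and 1.22 ± 0.38 after 9 h (2.34-fold). Within experiment 1 the changes were 0.45 and 1.55, and within experiment 2 they were 0.78 and 0.90. Omitting the 6 h array of experiment 2, with both uninduced arrays kept, brought the fitted 6 h change to 0.12. Omitting its counterpart in experiment 1 brought it to 1.10.

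**Figure D1:**
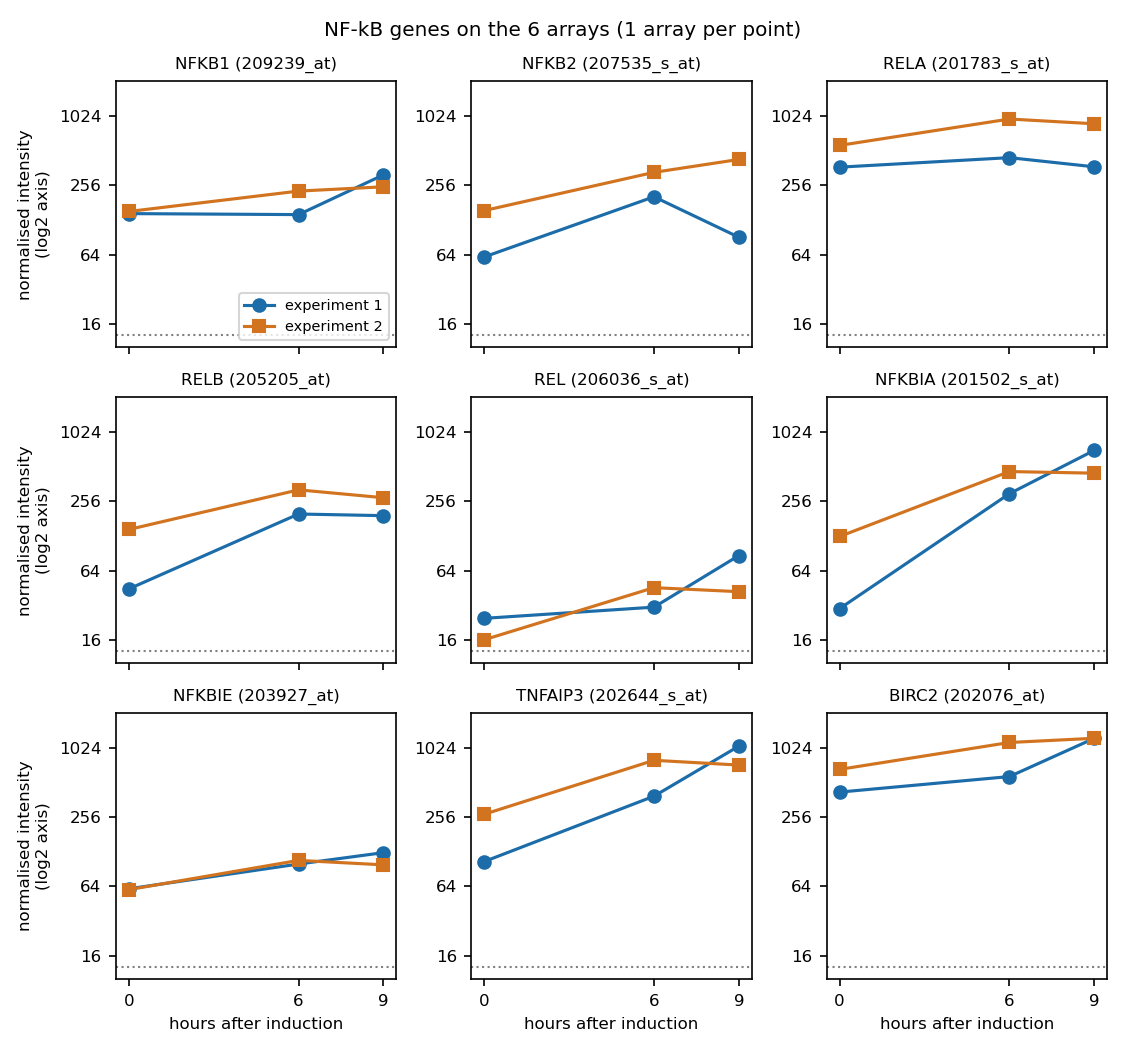
Normalised intensity (log2 axis) of each of the 9 measured genes, read from its probe set of highest mean, against hours after induction; each point is 1 array, lines join the arrays of an experiment, and the dotted line marks the floor of 12.7. NFKBIA and TNFAIP3 start lower in experiment 1 than in experiment 2 and end higher at 9 h.

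Among the subunits, RELB and NFKB2, whose products pair in the alternative NF-kB pathway, had the largest changes after 6 h. RELB intensities were 44.3 and 145.4 before induction, 198.2 and 321.4 on the 6 h arrays, and 191.8 and 274.7 on the 9 h arrays. All 4 induced arrays lay above both uninduced arrays, and each experiment had similar values at 6 h and 9 h. The log2 change was 1.65 ± 0.58 after 6 h (3.15-fold) and 1.52 ± 0.58 after 9 h (2.86-fold). Within experiment 1 the changes were 2.16 and 2.12, and within experiment 2 they were 1.15 and 0.92. Omitting the uninduced array of experiment 1 brought the fitted changes to 0.80 and 0.66, and omitting its counterpart in experiment 2 to 2.51 and 2.37.

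NFKB2, which encodes the precursor of p52, was read by 3 probe sets that did not move alike. On the NFKB2 probe set of highest mean the intensities were 61.2 and 154.8 before induction, 204 and 332.6 on the 6 h arrays, and 90.8 and 430.5 on the 9 h arrays. The 6 h arrays lay above both uninduced arrays, and the 9 h array of experiment 1 lay between them. The log2 change was 1.42 ± 0.77 after 6 h and 1.02 ± 0.77 after 9 h. Within experiment 1 the changes were 1.74 and 0.57, and within experiment 2 they were 1.10 and 1.48. The 6 h value became 0.75 if the uninduced array of experiment 1 was omitted and 2.09 if its counterpart in experiment 2 was. The 9 h value became -0.10 if the 9 h array of experiment 2 was omitted and 2.15 if its counterpart in experiment 1 was. Both of these fits kept the uninduced arrays of both experiments, so they compare across experiments. The 9 h values within each experiment were above 0. A second probe set gave 0.18 ± 0.96 after 6 h and 1.48 ± 0.96 after 9 h, with the 0 h and 6 h arrays of experiment 1 at the floor. Its 9 h change was 1.59 in experiment 1 and 1.38 in experiment 2. With single arrays omitted its change ran between -0.92 and 1.29 after 6 h and between 0.56 and 2.41 after 9 h, so its 6 h direction is not settled. The third was above the floor on 3 of the 6 arrays, read at most 19.8, and gave -0.14 and 0.09, both of which changed sign with single arrays omitted.

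NFKB1, which encodes the precursor of p50, was above its 0 h values after 9 h in both experiments. NFKB1 intensities were 145.7 and 152 before induction, 142.8 and 228.6 on the 6 h arrays, and 316.1 and 249.1 on the 9 h arrays. The 6 h array of experiment 1 was the lowest of the 6, and both 9 h arrays lay above all others. Its fitted change was 0.28 ± 0.34 (log2) after 6 h, with -0.03 and 0.59 in the experiments, and 0.92 ± 0.34 after 9 h, with 1.12 and 0.71. Omitting the 6 h array of experiment 2 brought the 6 h value to -0.06.

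REL, the gene of c-Rel, the subunit best known from lymphocytes, was read close to the floor. On the REL probe set of higher mean the intensities were 24.6 and 16.02 before induction, 30.8 and 45.4 on the 6 h arrays, and 86.3 and 41.9 on the 9 h arrays. Both induced groups lay above the uninduced one, with log2 changes of 0.91 ± 0.54 and 1.60 ± 0.54. The other probe set gave smaller values, 0.18 ± 0.47 after 6 h with overlapping groups and 0.60 ± 0.47 after 9 h without overlap. With single arrays omitted its 6 h value ran between -0.28 and 0.65. The pair correlated at 0.492 over the 6 arrays.

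RELA, the gene of p65, the activating subunit of the classical NF-kB dimer, had the smallest change of the 9 genes after 9 h. RELA intensities on the probe set of higher mean were 369 and 570.4 before induction, 446.3 and 966.6 on the 6 h arrays, and 371.6 and 879.1 on the 9 h arrays. Experiment 2 was above experiment 1 at every time, and both induced groups overlapped with the uninduced one. The log2 change was 0.52 ± 0.52 after 6 h, with 0.27 in experiment 1 and 0.76 in experiment 2. After 9 h it was 0.32 ± 0.52, with 0.01 and 0.62 in the experiments. Omitting the induced array of experiment 2, with its uninduced array kept, brought the 6 h and 9 h changes to -0.04 and -0.30. The sign of each fitted change thus depended on that array, while the values within each experiment were above 0. The other probe set gave 0.63 ± 0.55 and 0.16 ± 0.55, and its 9 h value was -0.58 in experiment 1 and 0.90 in experiment 2. With single arrays omitted that 9 h value ran between -0.65 and 0.97.

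**Figure D2:**
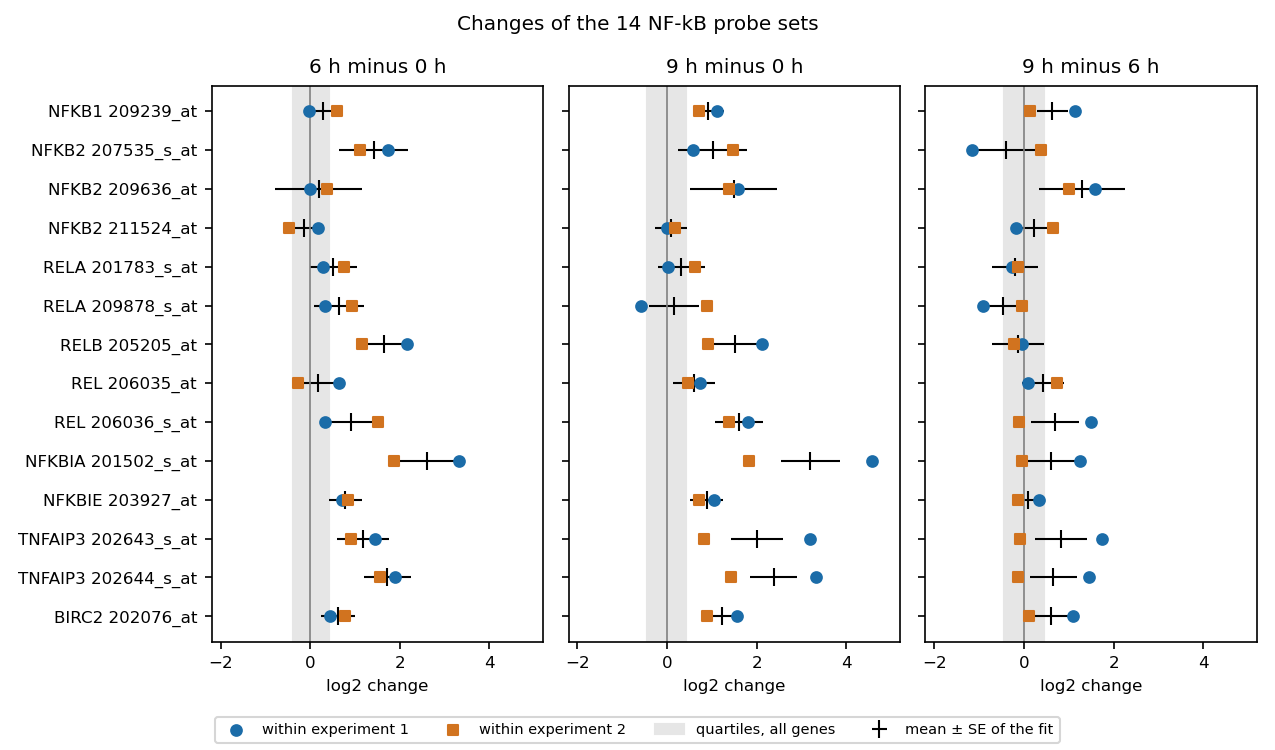
Log2 changes of the 14 probe sets for 6 h minus 0 h, 9 h minus 0 h and 9 h minus 6 h; coloured points are the changes within experiments 1 and 2, black points and bars the mean and standard error of the fit, and grey the quartile range of all tested genes. NFKBIA and both TNFAIP3 probe sets lie right of the grey span in both experiments at 6 h and 9 h against 0 h, and for 9 h minus 6 h their values in experiment 2 lie near 0.

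Over the family, the 9 genes had median log2 changes of 0.91 after 6 h and 1.22 after 9 h, beside 0.01 and -0.02 over the 10444 genes tested. All 14 member probe sets passed the filter on low values. After 6 h, 8 of the 9 genes were higher in both experiments, beside 26.9% of all genes, and 0 were lower in both, beside 25%. After 9 h, 9 of 9 were higher in both, beside 28%, and 0 lower, beside 29.5%. The induced arrays lay above the uninduced ones without overlap in 8 of 14 probe sets after 6 h, beside 16.1% of all probe sets, and in 9 of 14 after 9 h, beside 18.3%. Nothing is read from these counts, as the same arrays were known when the genes were picked.

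Across all 18360 tested probe sets, limma with Benjamini-Hochberg adjustment called 0 of the 14 at an adjusted p of 0.05 after 6 h or 9 h, and 0% of all probe sets. At an unadjusted p under 0.05 there were 3 after 6 h and 8 after 9 h, beside 4.77% and 7.41% of all. With experiment added to the fit as a replicate block, 0 were called after 6 h and 2 after 9 h, NFKBIA and the TNFAIP3 probe set of higher mean, beside 0.359% of all. In unscaled intensities the family median was -0.32 after 6 h and 0.60 after 9 h, which is 1.05 and 1.17 above the median of all genes. Read from the probe set of highest mean, NFKB1, NFKB2, RELA, REL, NFKBIE and BIRC2 were below 0 after 6 h in those intensities, and RELA was after 9 h, though each was above the median of all genes.

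With arrays assigned by their titles, the experiments differed in their course between 6 h and 9 h. For that step experiment 1 gave log2 changes of 1.25 for NFKBIA, 1.44 for TNFAIP3, 1.49 for REL, 1.15 for NFKB1 and 1.10 for BIRC2. Experiment 2 gave -0.05 for NFKBIA, -0.14 for TNFAIP3, -0.12 for REL, 0.12 for NFKB1 and 0.12 for BIRC2. NFKB2 ran the other way, with -1.17 in experiment 1 and 0.37 in experiment 2. Of the 9 genes, 5 lay above the upper quartile of all genes (0.44) in experiment 1, and 1 lay above it (0.30) in experiment 2. With 1 array per time and experiment, this difference has no replicate check. It also rests on the titles, as the 6 h array titled experiment 2 has a lot line naming experiment 1. The 6 h array of experiment 1 was the dimmest as deposited, with a median of 18.7, and the part of brightness was not tested. The 9 h array of experiment 1 held the highest value of NFKBIA, TNFAIP3, REL, NFKB1 and NFKBIE. On that array the 3' to 5' signal ratio of ACTB, a sign of RNA quality, was 1.82, against 0.918 to 1.09 on the other arrays, and its part in the result was not tested.

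Over both experiments, 9 h against 6 h gave a family median of 0.60, beside -0.01 for all genes. It was 0.12 with the 6 h array of experiment 1 omitted, 0.92 with that of experiment 2 omitted and 0.38 with the 9 h array of experiment 1 omitted. NFKB1 and BIRC2, 2 of the 14 probe sets, were higher at 9 h without overlap, beside 14.9% of all. In limma 0 of 14 were called, with or without the experiment in the fit, and 0 had an unadjusted p under 0.05, beside 5.27% of all. RELA and RELB had -0.20 and -0.14 in this step. With median scaling they had 0.06 and 0.11, where the median of all genes was itself 0.11, so no direction is given for them.

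The experiments also differed before induction. At 0 h, experiment 2 was above experiment 1 in 7 of the 9 genes, beside 49.8% of all genes. The difference was 2.08 on the log2 scale for NFKBIA, 1.72 for RELB, 1.37 for TNFAIP3 and 1.34 for NFKB2, and 0.06 for NFKB1 and -0.02 for NFKBIE. The uninduced array of experiment 1 held the lowest value of the 6 arrays for 6 of the 9 genes. At 6 h experiment 2 was above experiment 1 in 9 of the 9, beside 51.5% of all genes, with 0.64 for NFKBIA and 1.04 for TNFAIP3. At 9 h it was above in 4 of the 9, beside 52.2% of all genes, with -0.66 for NFKBIA and -0.55 for TNFAIP3.

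The rest of the pathway was read through 4 lists of 91 genes, of which 73 were tested. Each was read from its tested probe set of highest mean alone, and any others are not given here. CYLD had 6 tested probe sets, GADD45B 4, TNFRSF10B and PLAUR 3 each, and CXCL8 2. In limma 0 of the 73 were called after 6 h or 9 h, beside 0% of all genes, and 9 after 6 h and 14 after 9 h had an unadjusted p under 0.05, beside 4.22% and 7.91% of all genes. The replicate block brought 3 calls after 9 h, all of target genes that were higher, beside 0.45% of all genes.

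Of 9 other brakes on NF-kB, 5 were higher and 2 lower in both experiments after 9 h, beside 28% and 29.5% of all genes. The median log2 change was 0.28 after 9 h and 0.16 after 6 h, beside -0.02 and 0.01 for all genes. CYLD, a deubiquitinase that opposes the pathway, had intensities of 46.9 and 194.6 before induction, 85.0 and 239.6 on the 6 h arrays, and 201.3 and 276 on the 9 h arrays. Its 9 h change was 1.30 ± 0.74, with 2.10 in experiment 1 and 0.50 in experiment 2. NFKBIB, the gene of IkB-beta, had 0.77 ± 0.80 and NFKBIL1 had -0.96 ± 0.87, both with overlap. TNIP2, an A20-binding protein, had 0.28, ZFAND5 0.38 and N4BP1 -0.51.

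Of 21 kinases and adaptors that carry the signal to NF-kB, 11 were higher and 4 lower in both experiments after 9 h. Of all genes, 28% were higher and 29.5% lower. The list's median was 0.37 after 9 h and 0.21 after 6 h, beside -0.02 and 0.01 for all genes. TBK1, a kinase related to the IkB kinases, had intensities of 161.5 and 182 before induction, 211.2 and 433.4 on the 6 h arrays, and 360.6 and 665.2 on the 9 h arrays. Its 9 h change was 1.51 ± 0.44, and the groups did not overlap at either time. BCL10, an adaptor that recruits the IkB kinase, had 1.23 ± 0.26 after 9 h and 0.84 ± 0.26 after 6 h, also without overlap. TRAF1, an adaptor of TNF receptors and a known NF-kB target, had 1.36 ± 0.82. IRAK1, of the interleukin-1 and Toll-like receptor pathway, had 0.21, and RIPK2, of the NOD receptors, 0.59, both with overlap.

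Of 27 target genes, 15 were higher and 4 lower in both experiments after 9 h, beside 28% and 29.5% of all genes. Their median was 0.69 after 9 h and 0.71 after 6 h, beside -0.02 and 0.01 for all genes. The experiments differed, with medians of 1.08 after 9 h and 0.59 after 6 h in experiment 1. In experiment 2 they were 0.30 and 0.67. GADD45B, a stress response gene, had intensities of 146.2 and 294.3 before induction, 907 and 1482 on the 6 h arrays, and 1364 and 1298 on the 9 h arrays. LIF, a cytokine of the interleukin-6 family, read 28 and 76.4 before induction, 185.3 and 376.2 on the 6 h arrays, and 278.8 and 435.4 on the 9 h arrays. CXCL8, the chemokine interleukin-8, read 70.5 and 44.3 before induction, 1086 and 130.4 on the 6 h arrays, and 2452 and 210.2 on the 9 h arrays. These were the 3 called with the experiment in the fit, with 9 h changes of 2.68 ± 0.39, 2.91 ± 0.58 and 3.68 ± 1.27 in the fit without it. IER3, an early stress gene, had 1.40 ± 0.53, and PLAUR, the urokinase receptor, -0.69 ± 0.28.

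**Figure D3:**
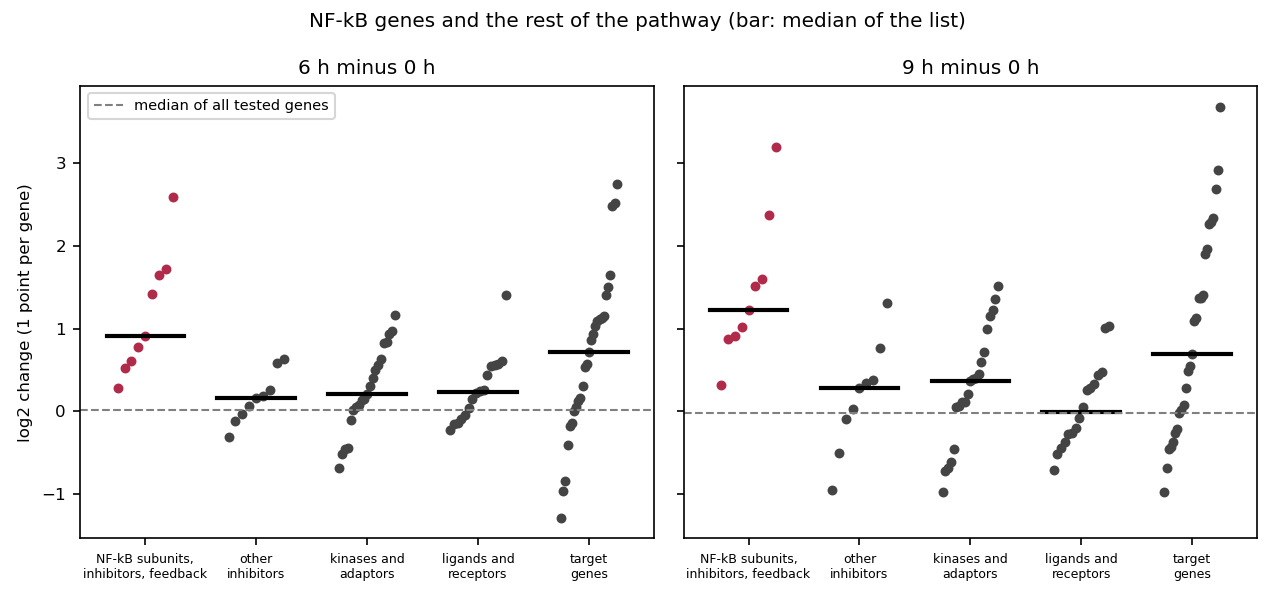
Log2 change per gene (1 point each) at 6 h and 9 h against 0 h for the 9 NF-kB genes and 4 lists of pathway genes; bars are list medians and the dashed line is the median of all tested genes. The NF-kB genes have medians of 0.91 and 1.22 with no gene below 0, and each list holds genes on both sides of 0.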

How the data were processed

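The authors deposited 1 linear intensity per probe set and array; software behind it: not given in the sources used here. Symbols came from the platform's probe table, 1 for 19071 probe sets and several for 1043, with 2169 unlisted, and were updated by Entrez number. Intensities were quantile normalised over all arrays, raised to a floor (25th percentile, 12.7) and taken to log2. Left out were 68 controls and probe sets above the floor on fewer than 2 arrays. Changes come from limma 3.58.1 (R 4.3.3, intensity trend, 3 residual degrees of freedom), adjusted by Benjamini-Hochberg over all tested probe sets, and ± gives the fit's standard error. A gene is read from its probe set of highest mean over the 6 arrays, kept in all alternatives that test it except the probe-set mean. The fit was run on simulated data with added changes, independent noise and no experiment effect. That run checks the code, and cannot show how the fit behaves where arrays of an experiment vary together.

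Members, lists and tests were chosen with earlier results of these data known. The text names all members, each list's 3 brightest genes, its 3 largest 9 h changes and its called genes, markers, and the 5 genes nearest NFKBIA. Experiment numbers mark RNA batches in the labels and so pair arrays; deviations of same-numbered arrays correlated at 0.246, 0.336 and 0.391. The main fit had no replicate block, so ± includes the differences between the experiments. With the block the standard error was 0.51 for NFKBIA against 0.66, and 0.22 for RELA against 0.52. For REL it was 0.53 against 0.54, and for the third NFKB2 probe set it was larger, 0.38 against 0.36. A label disagrees: the 6 h array titled experiment 2 has a lot line naming experiment 1, and the title was used.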

Additional observations from a re-analysis of the deposited data

How the results depend on the processing

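The counts of calls among the member probe sets stayed at 0 in all 3 comparisons under every alternative except the replicate block, where the experiment was a term in the fit: there 2 member probe sets, 3 pathway genes and 66 of all probe sets passed at 9 h against 0 h. With no filter on low values 24, 12 and 18 of all probe sets passed for 6 h against 0 h, 9 h against 0 h and 9 h against 6 h, and 0 of the members. The block changed no other call. The lot line of the labels, which puts the 6 h array of experiment 2 with experiment 1, gave 0 calls as a block; it put the family median for 9 h against 6 h at 0.25, against 0.60 without it, and the 6 h changes of NFKB2 at 2.32, of RELA at 0.99 and of REL at 0.50, against 1.42, 0.52 and 0.91. The family median of 0.91 at 6 h was -0.32 without scaling and 0.61 with the mean of a gene's probe sets, and that of 1.22 at 9 h was 0.60 without scaling, where all genes shifted by -1.36 and -0.56. With 1 array left out in turn, the family median lay between 0.73 and 1.19 at 6 h, between 0.89 and 1.55 at 9 h and between 0.12 and 0.92 for 9 h against 6 h, and such fits assume that a lone array varies like the other groups. Of 42 single changes, 25 kept their sign without scaling, 40 with median scaling and 42 with a lower floor or an offset of 16. The cause of these shifts was not tested. The number of arrays, 2 per group, limits every value.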

Other observations

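Of 16 tested ligands and receptors that switch on NF-kB, 6 were higher and 6 lower in both experiments after 9 h. Of all genes, 28% were higher and 29.5% lower. The list's median log2 change was -0.01 after 9 h and 0.23 after 6 h, beside -0.02 and 0.01 for all genes. TNFRSF10B, a TRAIL death receptor, had 1.00 ± 0.26 after 9 h without overlap, and LTBR, the lymphotoxin receptor, had -0.71 ± 0.40 without overlap. IL1RAP, the partner chain of the interleukin-1 receptor, had 1.03 ± 0.87, TNFRSF12A 0.28 and TNFRSF21 -0.52, all with overlap. TNF, singled out after its values were seen, read 22.1 and 38.0 before induction, 20.8 and 57.0 on the 6 h arrays, and 38.3 and 42.3 on the 9 h arrays.

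Of 8047 genes outside the family above the floor on all 6 arrays, those closest to NFKBIA by Pearson correlation of log2 values were AAGAB (0.994), ZNF473 (0.989), PCID2 (0.987), CDC27 (0.983) and GOSR1 (0.980). Their 9 h changes lay between 0.53 and 0.87, against 3.20 for NFKBIA. Within the family the correlation with NFKBIA was 0.985 for TNFAIP3, 0.917 for RELB and 0.408 for RELA. With 6 arrays that share their scaling, and as the best of many genes, these are a description.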
